A study of Ovis aries with 20 samples.

Results

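Transcripts of 4 genes of the activin, TGF-beta and BMP pathways, the activin subunit INHBA, the TGF-beta receptor TGFBR1 and the transducers SMAD1 and SMAD2, were followed in hearts of newborn lambs whose mothers had received cortisol or vehicle. Every probe whose gene name or description in the scanner files names 1 of these 4 genes was taken, which gave 6 of the 15008 probes on the array and 4 of the 866 genes that could be named. INHBA and TGFBR1 had 2 probes each, and SMAD1 and SMAD2 had 1 each. Where a gene had 2 probes, the one with the higher mean over the 20 arrays leads and the other is given beside it.

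The cortisol groups were 5 left ventricle (LV) and 5 interventricular septum samples of singleton lambs from ewes infused with cortisol at 1 mg/kg per day, from near gestation day 115 until birth. The control groups were 5 LV and 5 septum samples of lambs from ewes infused with vehicle over the same period. All titles carry the word telemetry, lambs were killed 10 to 480 min after birth, and no label gives a single lamb's time. The agent was given to the mother, so the lambs' own exposure was not measured here. The septum and LV samples with the same treatment and number were taken as 1 lamb, which gives 10 lambs.

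Activin A is a dimer of 2 INHBA chains, belongs to the TGF-beta family and binds type II activin receptors, which then activate the type I receptor ACVR1B. TGF-beta ligands use the type II receptor TGFBR2 with the type I receptor TGFBR1, the kinase encoded by a member here. Both branches lead to phosphorylation of SMAD2 and SMAD3, while BMP ligands mainly use SMAD1, SMAD5 and SMAD8, and both kinds of SMAD join SMAD4 to act in the nucleus. In the heart the family is best known for its actions on fibroblasts and on the production of extracellular matrix.

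The probe sequences show which values are independent readings of a transcript, and are given from 5′ to 3′ as the scanner files hold them. The INHBA probes are offset by 1 base and share a run of 59 bases, in capitals, so they are 2 readings of 1 stretch rather than of 2 parts of the transcript.
INHBA leading probe: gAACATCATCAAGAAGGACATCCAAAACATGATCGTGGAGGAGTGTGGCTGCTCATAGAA
INHBA other probe: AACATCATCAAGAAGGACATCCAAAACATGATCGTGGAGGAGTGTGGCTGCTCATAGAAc
The TGFBR1 probes lie end to end, at bases 661 to 720 and 721 to 780 of the transcript record on which they were designed, and share no sequence. They are therefore separate readings of neighbouring stretches.
TGFBR1 leading probe: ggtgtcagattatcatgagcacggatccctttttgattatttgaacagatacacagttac
TGFBR1 other probe: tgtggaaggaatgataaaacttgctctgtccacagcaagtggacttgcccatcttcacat
Each SMAD rests on 1 probe designed on an expressed sequence tag.
SMAD1 probe: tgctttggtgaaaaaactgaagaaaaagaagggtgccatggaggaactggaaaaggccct
SMAD2 probe: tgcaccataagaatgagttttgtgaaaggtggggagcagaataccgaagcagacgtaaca
The leading TGFBR1 probe holds 38.3% G and C bases and the other 5 hold 45% each. No other probe on the array shares a run of 20 bases with any of the 6, and matches to transcripts not on the array, such as those of other SMADs, were not tested.

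The arrays were 1-colour Agilent arrays, 57.9% to 72.1% of spots per array were well above background, and the arrays' 75th percentiles of processed signal lay between 98.4 and 440 units of intensity. In LV that percentile was 98.4 to 400 on cortisol and 101 to 262 on control arrays. In septum it was 155 to 304 on cortisol and 266 to 440 on control arrays. Every control septum array was thus brighter than every control LV array. LV arrays of cortisol lambs 1, 2 and 3 were among the dimmest, at 98.4, 108 and 98.7. Levels below are log2 of the processed signal minus the array's 75th percentile, so a level of 0 is the signal that 75% of the spots of that array do not exceed. Differences are differences of these levels, tested with limma across all probes that at least 5 of the 10 compared arrays read well above background (10 of 20 where all were used), and a probe passed at a Benjamini-Hochberg adjusted p under 0.05. The arrays lay on 4 slides. Slide 1 held 3 cortisol and 3 control arrays of septum, slide 3 held 3 and 3 of LV, slide 4 held the LV array of cortisol lamb 4 alone, and slide 2 held the other 7. MB, the myoglobin of muscle cells, was brighter than 99.9% of probes in each group, and it was the 1 heart muscle marker of 14 listed that could be named. In LV its level rests on 3 of 5 arrays in each group, since its spots on the others were left out as outliers. These are whole-tissue RNA samples, so more cells of a type and more RNA per cell cannot be told apart.

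INHBA was the member with the largest cortisol difference in both regions, and it did not pass the test in either. Its level was -1.07, 0.22, 0.72, -1.22 and -3.24 in LV of cortisol lambs 1 to 5, against -2.72, -1.76, -2.78, -2.34 and -3.00 in LV of control lambs 1 to 5. In septum it was -0.63, -0.59, -0.75, -0.87 and -3.56 in cortisol lambs 1 to 5, against -3.35, -1.88, -3.30, -2.82 and -1.73 in control lambs 1 to 5. In each region cortisol lambs 1 to 4 lay above every control lamb, and cortisol lamb 5 lay below every control lamb on the leading probe. On the other probe cortisol lamb 5 read -3.08 in LV, above control lamb 3 at -3.62. All 20 arrays read both INHBA probes well above background.

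In LV, INHBA averaged -0.92 ± 1.54 in cortisol lambs and -2.52 ± 0.49 in control lambs (SD, n = 5 each). The difference was 1.60 ± 0.62 (SE) on the log2 scale, a 3.03-fold higher mean, with an unadjusted p of 0.0254 and an adjusted p of 0.880 in limma's test. No probe passed in this comparison (0 of 9791, 0.0%), and 505 probes (5.16%) lay under 0.05 before adjustment, a share close to that threshold itself. The other INHBA probe gave 1.67 ± 0.63, with the same adjusted p of 0.880.

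In septum, INHBA averaged -1.28 ± 1.28 in cortisol lambs and -2.62 ± 0.77 in control lambs (SD, n = 5 each). The difference was 1.34 ± 0.58 (SE), a 2.53-fold higher mean, with an unadjusted p of 0.0421 and an adjusted p of 0.818 in limma's test. Here 0 of 10369 probes passed (0.0%), while 384 (3.70%) lay under 0.05 before adjustment. The other probe gave 1.28 ± 0.59.

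With both regions of a lamb averaged, INHBA differed by 1.47 ± 0.56 between cortisol and control lambs, with an unadjusted p of 0.0232 and an adjusted p of 0.815 in limma's test. In this comparison 0 of 10069 probes passed (0.0%), while 519 (5.15%) lay under 0.05 before adjustment. Cortisol lamb 5 carried much of the spread: without it the difference was 2.04 ± 0.31, with an adjusted p of 0.274. That was the highest value when each of the 10 lambs was left out in turn, and the lowest was 1.197. The 2 regions of a lamb are not separate animals, so the repeated order in LV and septum is 1 observation of 5 lambs against 5.

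The INHBA difference took different values by slide. In LV it was 2.23 ± 0.49 within slide 3 (cortisol lambs 1, 2 and 3 against control lambs 1, 2 and 4), and took the other sign within slide 2, at -0.35 ± 0.29 (cortisol lamb 5 against control lambs 3 and 5, the lone cortisol array being taken to vary like the others). In septum it was 2.03 ± 0.37 within slide 1 (cortisol lambs 1, 2 and 3 against control lambs 1, 2 and 4) and 0.30 ± 1.04 within slide 2 (cortisol lambs 4 and 5 against control lambs 3 and 5). None passed, with the smallest adjusted p at 0.266. With slide as a fixed block the difference averaged over regions was 1.39 ± 0.42, with an adjusted p of 0.144, in a fit that takes the 20 arrays of 10 lambs as independent. With the lamb as a random block beside the slide it was 1.48 ± 0.55, with an adjusted p of 0.740. After a normexp background correction it was 0.68 ± 0.32, with an adjusted p of 1.00. That correction adds an offset of 50 units to every spot, which shrinks the log2 differences of dim probes.

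**Figure D1:**
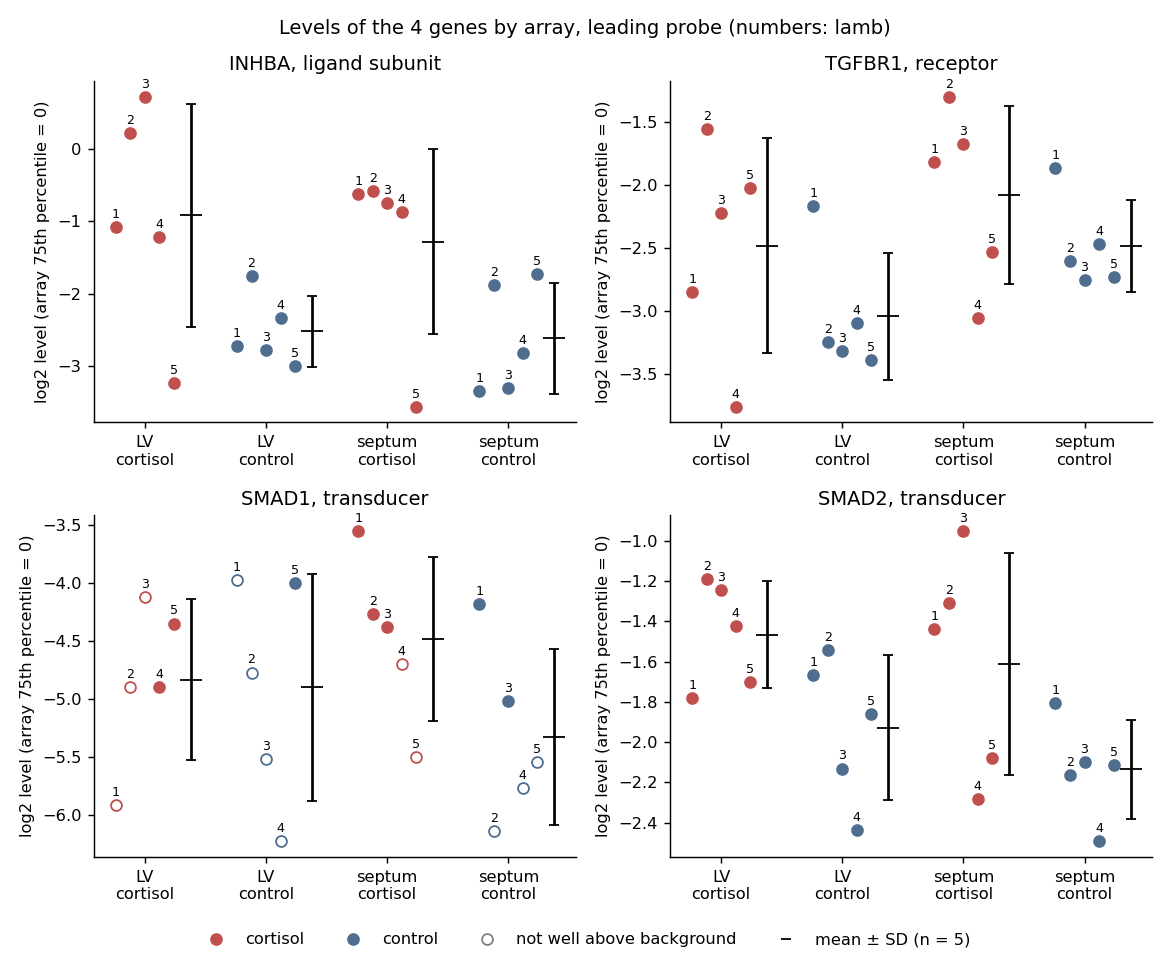
Level of the leading probe of each gene on every array, as log2 relative to the array's 75th percentile; numbers are lambs, open circles are arrays not well above background, and black bars are means ± SD of 5 arrays. Cortisol lamb 5 has the lowest INHBA level in both regions, at -3.24 in LV and -3.56 in septum, and the SMAD1 panel has 8 filled circles of 20.

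INHBA also varied more between lambs of 1 group than most probes did. Its pooled SD within the 4 groups was 1.10, above that of 96.6% of 10069 probes, whose median SD was 0.42. Over lambs, the mean of both regions ran from -3.40 to -0.01 in cortisol lambs and from -3.04 to -1.82 in control lambs. The 2 INHBA probes tracked each other over the 20 arrays (r = 0.984, a description, since they share 59 of 60 bases), and differed most on the LV array of control lamb 3, where the leading probe was 0.84 higher.

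INHBA gave no detectable difference between regions. Septum minus LV was 0.45, -0.81, -1.47, 0.34 and -0.33 in cortisol lambs 1 to 5, and -0.63, -0.12, -0.52, -0.48 and 1.27 in control lambs 1 to 5. Septum was the higher region in 2 of 5 cortisol lambs and in 1 of 5 control lambs. The mean difference was -0.36 ± 0.77 (SE) in cortisol lambs, with an adjusted p of 1.00, and -0.10 ± 0.36 in control lambs, with an adjusted p of 0.945. An interval of 2 SE either side ran from -1.90 to 1.17 in cortisol lambs and from -0.83 to 0.63 in control lambs. With the lamb as a block it ran from -0.94 to 0.22 in cortisol lambs (adjusted p 0.682) and from -0.65 to 0.46 in control lambs (adjusted p 0.824). In order of mean level the groups were LV cortisol, septum cortisol, LV control and septum control, and neighbours in that order differed by less than 1 SD of the wider group.

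TGFBR1, the type I receptor, had a smaller cortisol difference that did not pass in either region. Its leading probe read -2.85, -1.56, -2.22, -3.76 and -2.02 in LV of cortisol lambs 1 to 5, against -2.16, -3.24, -3.32, -3.10 and -3.39 in LV of control lambs 1 to 5. In septum it read -1.82, -1.30, -1.68, -3.06 and -2.53 in cortisol lambs 1 to 5, against -1.86, -2.60, -2.75, -2.47 and -2.73 in control lambs 1 to 5. The groups overlapped in both regions: cortisol lamb 4 was the lowest of its region each time, and control lamb 1 was the highest control lamb each time. The leading probe was well above background on 20 of 20 arrays and the other probe on 18.

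The cortisol difference of TGFBR1 was 0.56 ± 0.39 in LV, where cortisol lambs averaged -2.48 ± 0.85 and control lambs -3.04 ± 0.50 (SD, n = 5 each). In septum it was 0.41 ± 0.33, with -2.08 ± 0.71 in cortisol lambs and -2.48 ± 0.36 in control lambs. Adjusted p in limma's test was 0.880 in LV and 0.818 in septum, and the average over regions was 0.48 ± 0.34, with an adjusted p of 0.815. The other probe gave 0.31 ± 0.38 in LV and 0.57 ± 0.27 in septum, also without passing. After the normexp correction the leading probe gave 0.24 ± 0.26 in LV, 0.21 ± 0.42 in septum and 0.23 ± 0.27 averaged, with adjusted p of 1.00. Lambs 2 and 4 pulled these values in opposite directions: the average was 0.27 ± 0.32 without cortisol lamb 2 and 0.77 ± 0.26 without cortisol lamb 4. Within slide 2 the septum difference was -0.0545 ± 0.27, against 0.72 ± 0.28 within slide 1, and in LV it was 1.33 ± 0.27 within slide 2 and 0.63 ± 0.42 within slide 3.

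The leading TGFBR1 probe was higher in septum than in LV of every control lamb. Septum minus LV of the leading probe was 1.02, 0.26, 0.55, 0.70 and -0.51 in cortisol lambs 1 to 5, and 0.30, 0.64, 0.56, 0.63 and 0.66 in control lambs 1 to 5. It was positive in 4 of 5 cortisol lambs and in 5 of 5 control lambs, including control lambs 3 and 5, whose 2 arrays lay on the same slide. The mean was 0.40 ± 0.44 (SE) in cortisol lambs and 0.56 ± 0.26 in control lambs.

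The region test in control lambs turned on the pairing of the 2 samples of a lamb. Without the lamb as a block, TGFBR1 did not pass in control lambs, with an unadjusted p of 0.0531 and an adjusted p of 0.349 in limma's test. In that fit 174 of 10333 probes passed (1.68%), of which 2 were higher and 172 lower in septum, and 1529 (14.8%) lay under 0.05 before adjustment. With the lamb as a block the SE fell to 0.08 and TGFBR1 passed, at an adjusted p of 0.00772, in a comparison where 1951 probes passed (18.9%), 669 of them higher in septum (6.47%). It also passed in the blocked fit without each control lamb in turn, at 0.53 to 0.62, with adjusted p of 0.0182 to 0.0344. It did not pass with the block after a normexp background correction, at 0.19 and an adjusted p of 1.00, and no probe passed under that correction. The processed signals of this probe in control lambs ran from 12.9 to 72.9 units, against the offset of 50 that the correction adds. That fit therefore cannot tell an absent difference from one shrunk by the offset.

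The other TGFBR1 probe did not pass with the lamb as a block in control lambs, at 0.18 ± 0.14 with an adjusted p of 0.407, and was higher in septum in 4 of 5. Control lamb 1 was the exception, with septum minus LV at -0.46. The region call in control lambs therefore rests on 1 of the 2 TGFBR1 probes. In cortisol lambs the blocked fit gave an adjusted p of 0.564 for the leading probe and 0.468 for the other, and 0 of 9902 probes passed with or without the block (0.0%), 161 (1.63%) lying under 0.05 before adjustment without it. Slides 1 and 3 each held 1 region, so for control lambs 1, 2 and 4 slide and region cannot be told apart. The control arrays of LV and septum also did not overlap in their 75th percentiles, at 101 to 262 and 266 to 440 units. The part of array brightness in the region call was not tested.

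**Figure D2:**
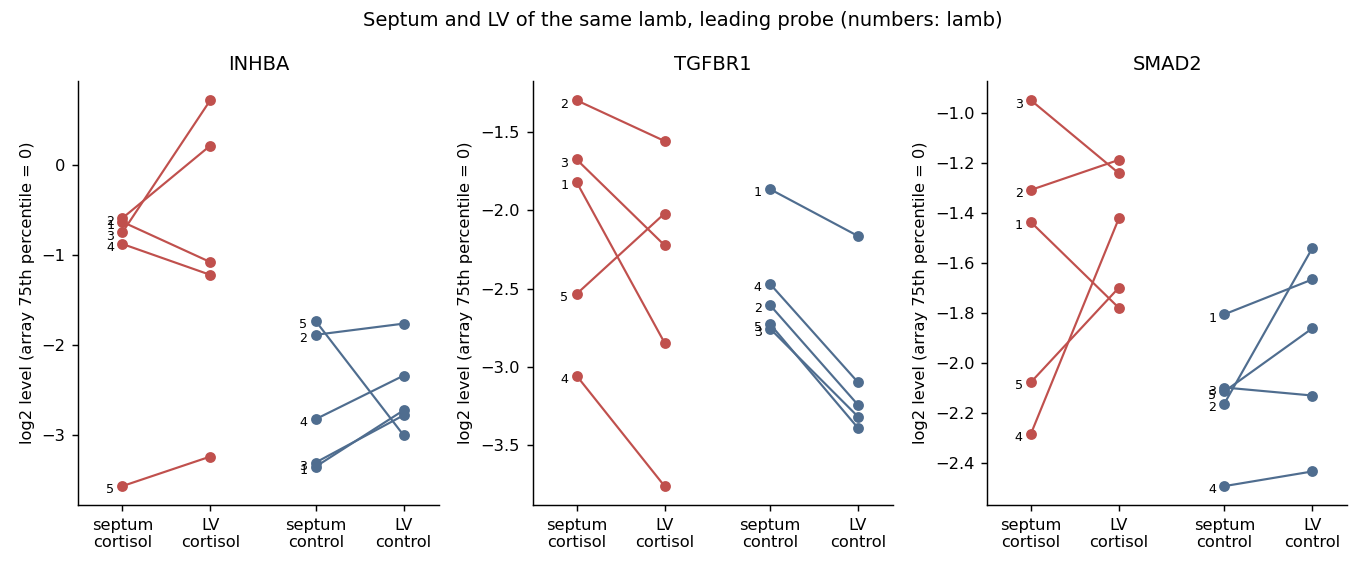
Level of the leading probe of INHBA, TGFBR1 and SMAD2 in septum and LV, with a line for each lamb; cortisol lambs are in red and control lambs in blue, and the vertical axes are log2 relative to the array's 75th percentile. All 5 TGFBR1 lines of control lambs run down from septum to LV, by 0.30 to 0.66, while INHBA lines run both ways.

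In order of mean TGFBR1 level the groups were septum cortisol, LV cortisol, septum control and LV control. Only LV control stood below its neighbour by more than the SD of both groups. The 2 probes kept the same order of lambs for the most part (r = 0.934 over 20 arrays, as a description).

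SMAD2, the transducer shared by the activin and TGF-beta branches, had the least spread of the members. Its level was -1.78, -1.19, -1.24, -1.42 and -1.70 in LV of cortisol lambs 1 to 5, against -1.67, -1.54, -2.13, -2.43 and -1.86 in LV of control lambs 1 to 5. In septum it was -1.44, -1.31, -0.95, -2.28 and -2.08 in cortisol lambs 1 to 5, against -1.81, -2.16, -2.10, -2.49 and -2.12 in control lambs 1 to 5. In each region 3 of 5 cortisol lambs lay above every control lamb, and the rest lay within the control range. The probe was well above background on 20 of 20 arrays, and its pooled SD of 0.38 exceeded that of 41.5% of probes.

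SMAD2 averaged -1.47 ± 0.27 in cortisol and -1.93 ± 0.36 in control LV, and -1.61 ± 0.55 in cortisol and -2.14 ± 0.24 in control septum (SD, n = 5 each). The cortisol difference was 0.46 ± 0.21 (SE) in LV, a 1.38-fold higher mean, with an unadjusted p of 0.0538 and an adjusted p of 0.880 in limma's test. In septum it was 0.52 ± 0.26, a 1.44-fold higher mean, with an unadjusted p of 0.0689 and an adjusted p of 0.818. The average over regions was 0.49 ± 0.21, with an unadjusted p of 0.0358 and an adjusted p of 0.815. By slide the septum difference was 0.92 ± 0.26 within slide 1 and -0.0734 ± 0.22 within slide 2, and the LV difference was 0.48 ± 0.31 within slide 3 and 0.30 ± 0.30 within slide 2. After the normexp correction SMAD2 differed by 0.25 ± 0.19 in LV, 0.30 ± 0.39 in septum and 0.27 ± 0.23 averaged, with adjusted p of 1.00.

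SMAD2 did not pass between regions. Septum minus LV was -0.14 ± 0.27 in cortisol lambs, with an adjusted p of 1.00, and -0.21 ± 0.19 in control lambs, with an adjusted p of 0.701 and, with the lamb as a block, of 0.208. Septum was the higher region in 2 of 5 cortisol lambs and in 1 of 5 control lambs. The 2 SE interval ran from -0.69 to 0.40 in cortisol lambs and from -0.59 to 0.17 in control lambs. LV cortisol had the highest mean, then septum cortisol, LV control and septum control, each within 1 SD of the wider of its neighbours.

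SMAD1, a transducer of the BMP branch, was near the limit of detection. Its probe was well above background on 2 of 5 cortisol and 1 of 5 control arrays in LV, and on 3 of 5 cortisol and 2 of 5 control arrays in septum, 8 of 20 in all. Processed signals ran from 1.63 to 15.7 intensity units. It passed the filter on dim probes for cortisol in septum and for region in cortisol lambs only, since too few arrays read it above background in the others.

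In septum SMAD1 read -3.56, -4.27, -4.38, -4.70 and -5.50 in cortisol lambs 1 to 5, against -4.18, -6.13, -5.02, -5.77 and -5.55 in control lambs 1 to 5. Cortisol lambs 1, 2 and 3 and control lambs 1 and 3 were the ones well above background, and the groups overlapped. The difference was 0.85 ± 0.41 (SE), with an unadjusted p of 0.0640 and an adjusted p of 0.818 in limma's test. It was 1.29 ± 0.52 within slide 1 and 0.18 ± 0.37 within slide 2, and 0.24 ± 0.55 after the normexp correction. With dim probes kept in, 63.8% of all 15008 probes were higher in septum of cortisol lambs. Of the 1817 under 0.05 before adjustment in limma's test, 1633 were higher. In LV the SMAD1 means were -4.84 ± 0.69 in cortisol and -4.90 ± 0.98 in control lambs, mostly from readings not well above background. Without the filter on dim probes the LV difference was 0.06 ± 0.48 (adjusted p 0.987), and on the authors' deposited values it was 0.08 ± 0.36 (adjusted p 0.974). Septum minus LV in cortisol lambs was 0.35 ± 0.40, with an adjusted p of 1.00, and single lambs ran from -1.15 to 2.36.

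**Figure D3:**
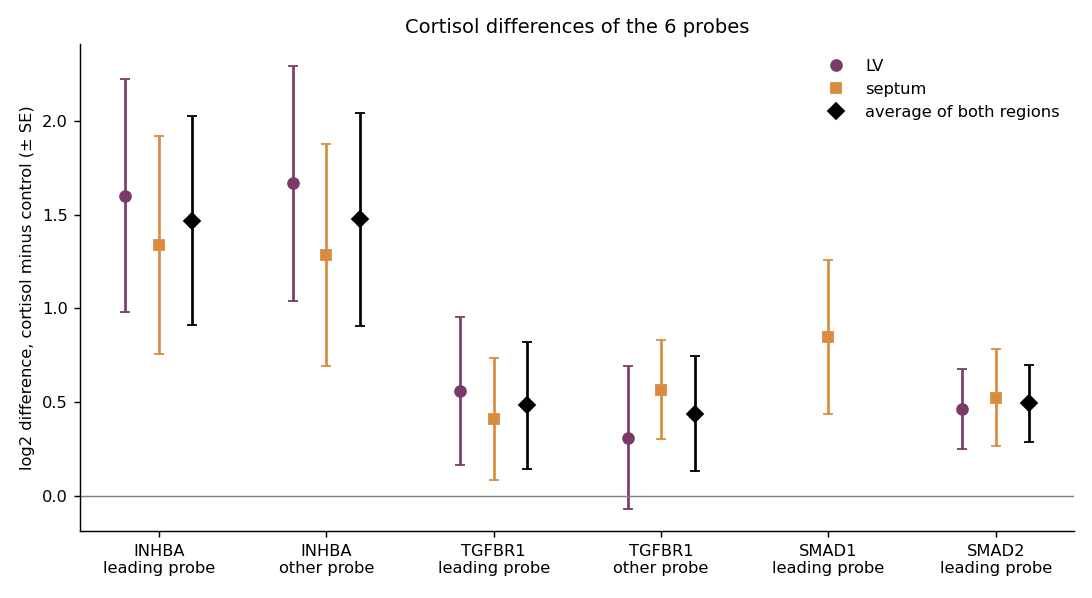
Cortisol minus control difference of each of the 6 probes on the log2 scale, with SE, in LV (circles), septum (squares) and averaged over both regions (diamonds); SMAD1 is shown in septum only, where it passed the filter on dim probes. All 16 differences shown are above 0, the INHBA ones between 1.28 and 1.67, and none passed the adjusted test. Over all probes 48.7% were above 0 in LV, 54.7% in septum and 51.9% averaged. The 16 are not separate: averages repeat the regions, the INHBA probes share 59 bases, and all come from the same 10 lambs.

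The cortisol difference did not itself differ detectably between regions for the 3 genes measured in both. The septum difference minus the LV difference was -0.26 ± 0.91 for INHBA, -0.15 ± 0.54 for TGFBR1 and 0.06 ± 0.34 for SMAD2, each with an adjusted p of 1.00. With the lamb as a block the SE fell to 0.44, 0.25 and 0.23 and the adjusted p was 0.997 for each. In this comparison 0 of 10069 probes passed (0.0%) with or without the block, and without it 38 (0.377%) lay under 0.05 before adjustment. For INHBA the 2 SE interval of -2.08 to 1.55 is wider than the effect in either region.

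Of 79 other genes of the TGF-beta, activin and BMP pathways listed by role, 31 could be named on the array and 24 were tested. None passed for cortisol. In LV 19 of the 24 were positive and 5 negative, with a median of 0.24, against a median of -0.01 and 48.7% positive over all 9791 probes. In septum 16 were positive and 8 negative, with a median of 0.26, against a median of 0.03 and 54.7% positive over all 10369 probes. Under other scalings and background corrections 18 to 20 of the LV differences and 16 to 18 of the septum ones were positive. Over all probes these settings gave 45.0% to 55.8% positive in LV and 48.4% to 67.5% in septum. The highest shares came with normexp, where 18 of 24 were positive in each region. There the list median was 0.12 in LV and 0.20 in septum, against 0.02 and 0.09 over all probes. Within slide 2 of septum the counts turned to 9 positive and 15 negative, with a median of -0.09, where 50.1% of all probes were positive. Within slide 1 of septum they were 19 and 5. In LV they were 15 and 9 within slide 2, and 18 and 6 within slide 3. On the authors' deposited values 18 of 24 were positive in LV, and 4 of the 7 with values in septum.

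By role, ligands were 3 positive and 3 negative in each region. BMP6 was at 0.73 ± 0.36 in LV. BMP4 was at 0.78 ± 0.53 in LV, where its probe was well above background on 2 of 5 cortisol and 3 of 5 control arrays, and at -0.0728 ± 0.28 in septum, with an adjusted p of 0.954. BMP6 was at 0.46 ± 0.48 and TGFB2 at 0.39 ± 0.40 in septum. Receptors were 3 of 5 positive in LV and 2 of 5 in septum. TGFBR2, the type II partner of TGFBR1, was at 0.37 ± 0.29 in LV and 0.44 ± 0.31 in septum, while the type II activin receptor ACVR2B was at -0.26 ± 0.26 in LV and -0.27 ± 0.28 in septum.

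The 3 transducers tested were positive in both regions. SMAD4, the partner of both SMAD branches, was at 0.43 ± 0.24 in LV and 0.39 ± 0.30 in septum, and SMAD7, which inhibits the receptors, was at 0.49 ± 0.47 in LV and 0.80 ± 0.47 in septum. Extracellular binders were positive in 6 of 6 in LV and 4 of 6 in septum. Among them BGN (biglycan, a matrix proteoglycan) was at 0.64 ± 0.21 in LV and 0.74 ± 0.32 in septum, NOG (noggin, which binds BMPs) was at 0.47 ± 0.37 in LV (above background on 3 of 5 cortisol and 2 of 5 control arrays), and FST (follistatin, which binds activin) was at -0.80 ± 0.58 in septum. The 4 targets tested were positive in both regions, with COL1A1 at 0.88 ± 0.45 in LV and 0.92 ± 0.44 in septum and JUNB at 0.91 ± 0.60 in LV and 1.18 ± 0.72 in septum. Apart from BMP4 in septum, adjusted p of these differences were between 0.818 and 0.890 in limma's test. Not all targets differed as much: COL3A1 averaged 2.32 in cortisol and 2.25 in control LV, and 1.04 in cortisol and 0.82 in control septum. FST averaged -2.95 in cortisol and -3.13 in control LV, the other direction from septum. In septum its probe was well above background on 4 of 5 cortisol arrays.

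**Figure D4:**
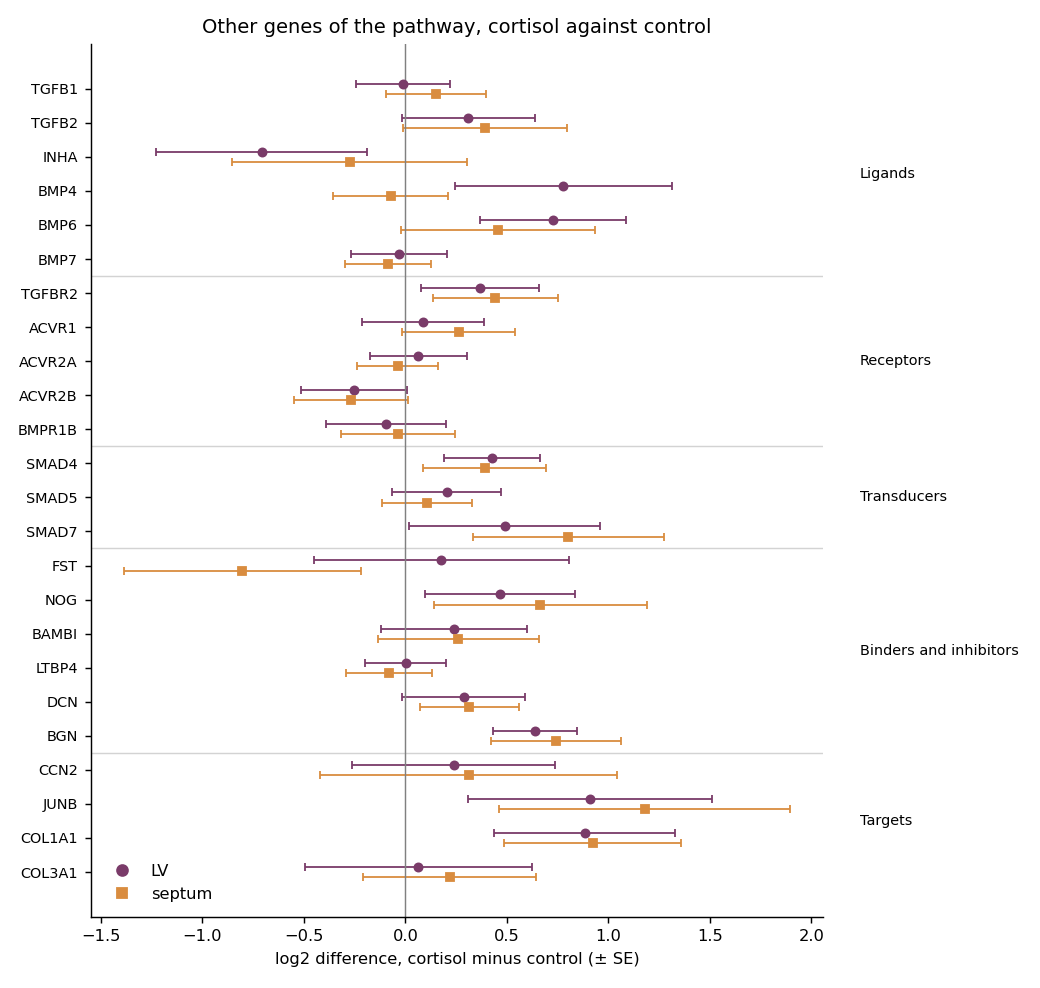
Cortisol minus control difference, with SE, of the pathway genes that were tested besides the 4 members, by role from ligands at the top to targets at the bottom, in LV (circles) and septum (squares). In LV 19 of 24 points lie above 0 and in septum 16 of 24, none passing the adjusted test.

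Between regions in control lambs, 1 of the 24 passed without the lamb block: COL3A1, a fibrillar collagen chain, was lower in septum at -1.43 ± 0.25 (adjusted p 0.0227). With the lamb block 8 of 24 passed (33.3%), against 18.9% of all probes. The ligands TGFB1 at -0.49, TGFB2 at -0.53 and INHA at -0.55 and the targets COL3A1 at -1.43, COL1A1 at -0.62 and JUNB at -0.60 were lower in septum, and the transducer SMAD5 at 0.31 and the pseudoreceptor BAMBI at 0.35 were higher. TGFBR1 was in the same blocked comparison higher in septum, as given above, and none of the 5 other receptors passed. No gene of the list passed after the normexp correction with or without the block, and none passed in cortisol lambs with or without the block.

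Of the 4 cortisol lambs with INHBA above every control lamb, 3 also had a summed level of fibroblast markers above every control lamb. Of 9 listed markers 5 could be named (DCN, BGN, COL1A1, COL3A1 and VIM), the first 4 of which are also on the pathway list. All 5 had a positive cortisol difference in each region, small for COL3A1 in LV (means of 2.32 in cortisol and 2.25 in control lambs). None of the 5 markers passed, with a median difference of 0.51 in LV and 0.47 in septum. Their summed level, in multiples of the array's 75th percentile, ran from 88.5 to 252 in cortisol and from 99.0 to 152 in control LV, and from 89.5 to 234 in cortisol and from 95.5 to 138 in control septum. The sum is of levels off the log2 scale, so the brightest markers set it. Group means on the log2 scale reached only 2.32 for COL3A1, -0.44 for BGN and -0.87 for COL1A1. DCN and VIM therefore made up most of the sum, which does not show all 5 markers moving together.

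By lamb, the summed fibroblast level was 179, 252, 242, 105 and 88.5 in LV of cortisol lambs 1 to 5, and 193, 224, 234, 103 and 89.5 in their septum. Cortisol lambs 1, 2 and 3 were above every control lamb in both regions, and lambs 4 and 5 were not. Lamb 4 had INHBA above every control lamb, at -1.22 in LV and -0.87 in septum, with a fibroblast level inside the control range of each region. The part of the fibroblast markers in the INHBA difference was not tested. Macrophage markers, of which 3 of 6 could be named, had a summed level of 0.53 to 1.68 in cortisol and 0.73 to 1.48 in control LV, and of 0.80 to 1.43 in cortisol and 0.49 to 0.93 in control septum. Cortisol differences of other cell types went both ways. Endothelial markers were positive in 1 of 3 tested in LV and 2 of 3 in septum. T cell markers were positive in 1 of 2 and 2 of 2, and red cell markers in 0 of 1 and 2 of 2. The 1 smooth muscle marker was at -0.29 in LV and -0.17 in septum, and the 1 neutrophil marker at -0.61 and -0.27.

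**Figure D5:**
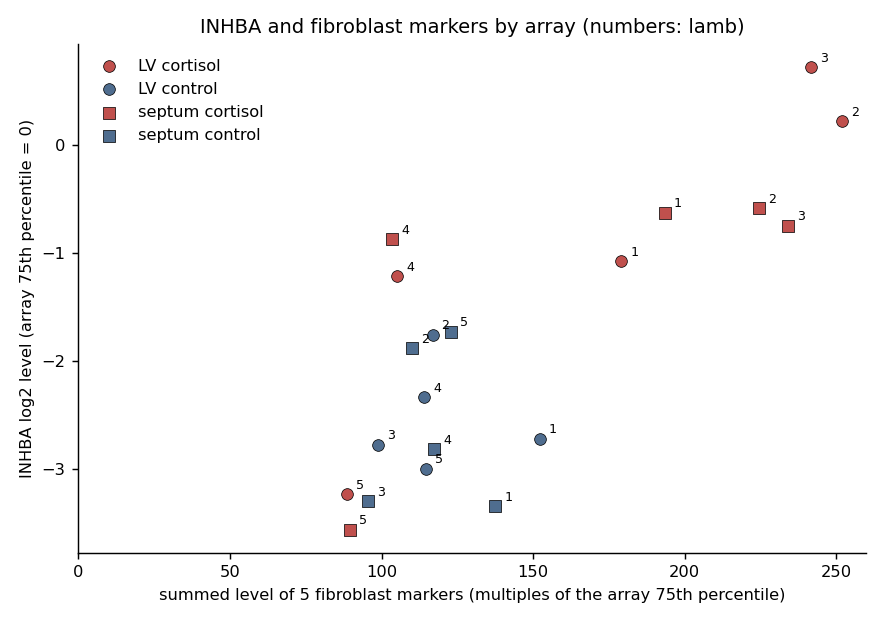
INHBA level (log2 relative to the array's 75th percentile) against the summed level of 5 fibroblast markers, made up mostly of DCN and VIM, on each of the 20 arrays, with lamb numbers. Cortisol lambs 1, 2 and 3 lie at the upper right in both regions, cortisol lamb 4 lies above the control lambs at a fibroblast level of 103 to 105, and cortisol lamb 5 lies at the lower left.

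The genes whose pattern was most like that of each member were taken as those with the highest Pearson r over the 10 lamb means, among 542 genes. These are descriptions with no test, since the points share the lambs' 2 arrays and the cortisol groups. For INHBA they were BGN (r = 0.869, Spearman rho 0.927), the mitochondrial carrier SFXN1 (0.868, rho 0.842) and the growth factor IGF1 (0.865, rho 0.867). For TGFBR1 they were the transcription factor NRF1 (r = 0.925, rho 0.842), the kinase subunit PRKAA2 (0.905, rho 0.879) and the small GTPase RAC1 (0.900, rho 0.927). For SMAD2 they were SFXN1 (r = 0.896, rho 0.915), BCL2L1, an inhibitor of apoptosis (0.885, rho 0.927), and the transcription factor GATA3 (0.883, rho 0.867). For SMAD1, mostly not well above background, FGF1 (r = 0.910, rho 0.806) came first.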

How the data were processed

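The deposited processed spot intensity was made, per the file headers, by background subtraction and detrending in Agilent Feature Extraction 10.1.1.1, without normalization between arrays. Per the labels, 100 ng of RNA was labelled with Cy3. Raw spot and local background intensities as deposited served the normexp alternative (offset 50). The offset shrinks log2 differences of dim probes, so fewer passing probes are built into that alternative. The authors' deposited value table, log2 intensity by its values and with its normalization not stated, served as an alternative. For the members it served in LV only, since the septum cells of their probes are empty there. The submitters' processing notes name limma, and 0 of the table's columns belonged to other samples.

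Levels were set against each array's 75th percentile on the log2 scale and outlier spots were left out. Tests used limma 3.58.1 and statmod 1.5.0 in R 4.3.3, two-sided, adjusted by Benjamini-Hochberg across every probe that entered the test. Tables were handled in the package data.table (version 1.17.8) and in pandas 2.3.3, and plots in matplotlib 3.10.9. The fits without a block for cortisol in each region and for region in cortisol lambs were run on simulated data with independent noise. The region fit in control lambs and the fits with the lamb as a block were not. The number of arrays limits the precision. Names came from scanner annotations, brought to RefSeq symbols (ARS-UI_Ramb_v3.0, used for names only), for 1398 of 15008 probes, 10 of them by hand from descriptions.

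Replicates are separate lambs. Septum and LV arrays of 1 treatment and number had residual correlations of 0.447 to 0.813 across probes, the own partner highest in 10 of 10, so they were paired. Cortisol and control arrays with the same number were not (0.0723 to 0.288 in LV and 0.0577 to 0.273 in septum, over 0.1 in 4 of 5 and 3 of 5, own number highest in 3 of 5 in each region), and a replicate block on that number is an alternative. Pathway genes named were those that passed or else the 2 with the smallest p in each role. Members and lists were chosen with earlier results of these data known. Data from term fetuses were not analysed here.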

Additional observations from a re-analysis of the deposited data

Results flagged for a closer look

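In 16 groups of 5 arrays examined (4 genes in 4 groups), 2 held an array whose gap to the nearest other, as a share of the group's range, exceeded Dixon's critical value of 0.71. Chance flags about 1 in 20 such groups. INHBA in septum of cortisol lamb 5 was the lowest of its group, at -3.56 (share 0.904), where the others ran from -0.87 to -0.59. TGFBR1 in LV of control lamb 1 was the highest of its group, at -2.16 (share 0.762), where the others ran from -3.39 to -3.10. The same lamb had the highest TGFBR1 level of the control septum, at -1.86.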

How the results depend on the processing

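For cortisol in LV and septum and for region in cortisol lambs, the count of probes passing was 0 in every alternative run. Averaged over regions it was 4 with slide as a fixed block, a fit that takes the 20 arrays as independent (1882 probes under 0.05 before adjustment, against 519 in the analysis as reported), and 0 otherwise, also with the lamb as a random replicate block beside the slide (646 under 0.05). That last fit, chosen after seeing the data, gave 1 for the septum minus LV contrast of the cortisol effect, whose count was 0 in every other alternative; the probe was not a member. The lamb as a replicate block left the averaged and cortisol lamb counts at 0, and the replicate block on the shared number left both cortisol counts at 0. Between regions in control lambs the 174 probes became 0 with normexp, 350 without the filter on dim probes (more probes tested), 0 within slide 2 (fewer arrays) and 1951 with the lamb as a replicate block. Leaving out 1 array gave 52 to 93 for 8 of the 10 arrays, 157 without LV of control lamb 4 and 169 without septum of control lamb 1. Fits with that block and a second change were chosen after seeing the data: 0 with normexp, 1859 with quantile normalization, 2007 with median scaling, 1886 with the percentile over probes above background and 1908 with outlier spots kept, and 898, 850, 1181, 1117 and 1190 without control lambs 1 to 5. Among members, signs turned within slide 2 for cortisol (INHBA in LV -0.35, TGFBR1 in septum -0.0545, SMAD2 in septum -0.0734). For septum against LV in cortisol lambs they turned within slide 2 (INHBA 1.02, TGFBR1 -0.77, SMAD1 -0.75), with slide as a random block (INHBA 0.12, SMAD1 -0.0036), and in the blocked fit without lamb 1 (SMAD1 -0.15) or lamb 4 (SMAD2 0.0341). In control lambs INHBA turned to 0.04 with normexp, to 0.37 within slide 2, and in the blocked fit to 0.0340 without lamb 1 and 0.0087 without lamb 3. Leaving out 1 array gave -0.94 to 0.21 for INHBA (turned without septum of lamb 5 or LV of lamb 3) and -0.31 to 0.0230 for SMAD2 between regions in cortisol lambs, and -0.32 to 0.0919 for INHBA in control lambs. For the contrast of the cortisol effect it gave -0.84 to 0.31 for INHBA, -0.47 to 0.0919 for TGFBR1 and -0.10 to 0.23 for SMAD2. The causes were not tested. SMAD1, near background, and 5 lambs a group limit what could be detected.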
